A study of Mus musculus with 8 samples.

Results

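The comparison described here is the effect of digoxin on gene expression in mouse CD4 T cells that lack RORγt, and it used 4 of the 8 Affymetrix arrays of the study. The arrays were chosen by their titles alone, 2 of RORγt-deficient cells in digoxin and 2 of RORγt-deficient cells in DMSO. All 45101 probe sets of these arrays belonged to the comparison, and 18193 named genes, each read by 1 probe set, were tested. Per the labels, all 4 groups began as FACS-sorted naive CD4 T cells of C57BL/6 mice, which were stimulated through CD3 and CD28 under Th17 conditions for 48 h. The 4 groups, with 2 arrays each, were RORγt-deficient cells with digoxin, RORγt-deficient cells with DMSO, wildtype cells with digoxin and wildtype cells with DMSO. The deficient groups share the loss of RORγt, and neither its allele nor the dose of digoxin is given in the sources used here. Arrays of a group are numbered as biological replicates, but nothing says that separate mice or cultures were used, so p-values reflect only the spread of these arrays, and that spread may be technical. No check of the genotype labels on the RORγt gene was made, since that gene was not analysed here.

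RORγt is the nuclear receptor that directs naive CD4 T cells to become Th17 cells, the helper cells that secrete interleukin 17. It binds DNA at short ROR response elements built around a nuclear receptor half-site and switches on the genes of the Th17 programme. Digoxin, a cardiac glycoside, is known as an inhibitor of the sodium pump (Na,K-ATPase) and, in mouse Th17 cultures, as an antagonist of RORγt. Digoxin in cells without RORγt asks which expression changes the drug brings when that nuclear receptor is absent.

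Digoxin lowered 1 gene in RORγt-deficient cells at an adjusted p under 0.05, Il17a, and raised none. Il17a encodes interleukin 17A, the signature cytokine of Th17 cells. Its log2 values, each relative to the wildtype DMSO mean, were -3.87 and -4.12 in digoxin-treated deficient cells, against -2.01 and -2.21 in deficient cells in DMSO. The groups lay far apart, and digoxin-treated deficient cells had the lowest values of the 4 groups. The digoxin arrays averaged -3.99 ± 0.18 and the DMSO arrays -2.11 ± 0.14 (SD, n = 2 each). Il17a was thus 3.69-fold lower with digoxin (log2 change -1.88 ± 0.12, SE, 95% interval -2.16 to -1.61, limma adjusted p = 0.000634). Its lowest array level before centring lay between 4 and 8 on the log2 scale, a range recovered from the numerical step of the deposited values, in which 31.7% of genes lay lower, between 2 and 4. Over all genes 0.0055% were called, 639 genes (3.51%) had an unadjusted p under 0.05, and Il17a was the only gene past 2-fold. Quantile normalisation of the deposited values ended the call, with Il17a at -0.79 ± 0.17 (adjusted p = 1).

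The Il17a promoter is shown because Il17a carries the called change and because half-sites of ROR elements can be read in it. The RefSeq sequence of GRCm38.p6, chr1:20730655-20730954 on the plus strand, runs from 250 bases before to 50 bases after the start of the gene. Capitals mark the match to the half-site AGGTCA, searched on both strands, which lies here on the minus strand and reads TGACCT on the printed strand.
Il17a promoter: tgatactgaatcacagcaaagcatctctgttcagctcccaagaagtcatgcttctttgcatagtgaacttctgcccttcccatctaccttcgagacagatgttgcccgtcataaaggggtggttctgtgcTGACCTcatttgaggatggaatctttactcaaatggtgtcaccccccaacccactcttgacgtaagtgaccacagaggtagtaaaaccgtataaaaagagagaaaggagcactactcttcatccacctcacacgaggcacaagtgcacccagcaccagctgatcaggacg
The window holds 1 match, which begins 120 bases before the start site. The half-site was found in 5340 of the 32851 promoters of that length in the table (16.3%), so a match alone is common. Among the 22 genes called for digoxin in wildtype cells, 18 had a promoter in the table, and 2 of these held the half-site, Il17a and Tafa3.

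**Figure D1:**
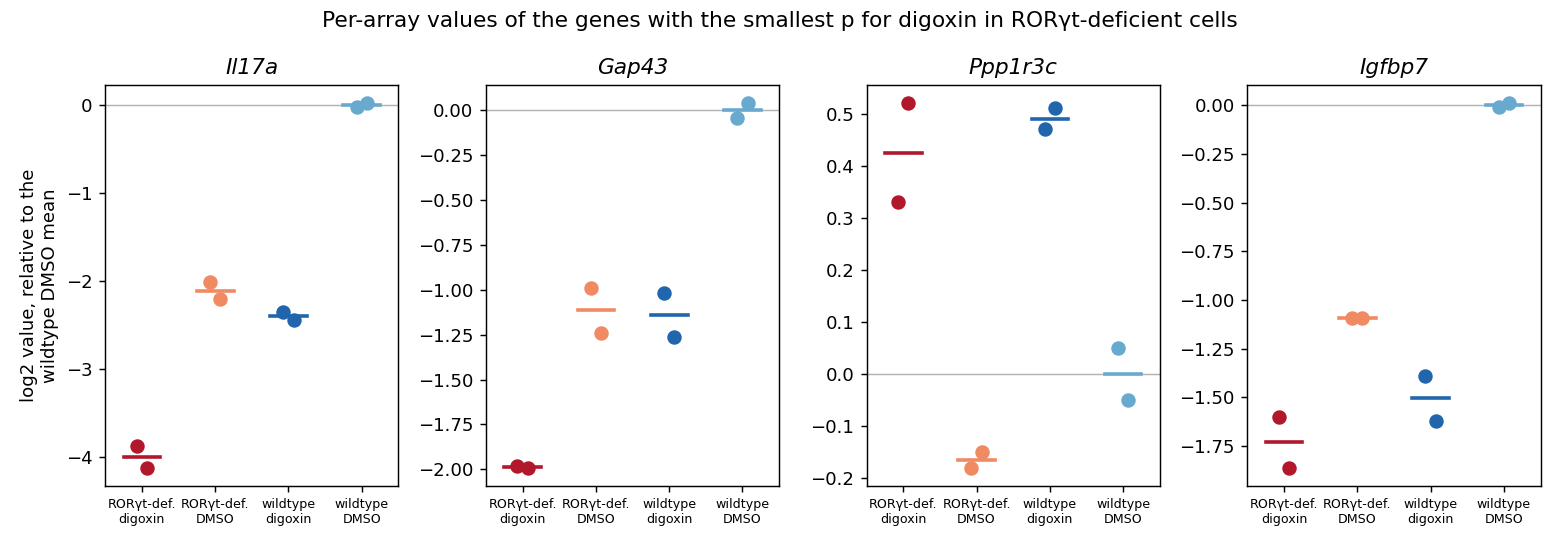
Log2 values relative to the wildtype DMSO mean (vertical axis, a separate scale in each panel) of Il17a, Gap43, Ppp1r3c and Igfbp7 on each array (points) with the group mean (bars), for the 4 groups named under each panel. Il17a lies at -3.87 and -4.12 in digoxin-treated deficient cells, below all 6 other arrays, and Ppp1r3c lies higher in digoxin than in DMSO in both genotypes.

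Beyond Il17a the change was small. The log2 changes of all 18193 genes had a median of 0.02 and an SD of 0.13, against 0.01 and 0.17 for digoxin in wildtype cells. Changes of at least 1.5-fold were shown by 11 genes (0.0605%), 2 higher (0.011%) and 9 lower (0.0495%), and in all 11 the digoxin and DMSO arrays did not overlap. The same fold was passed by 98 genes (0.539%) for digoxin in wildtype cells, of which 22 (0.121%) were called. The median standard error of a change was 0.13 in both genotypes. Genes with an unadjusted p under 0.05 in deficient cells comprised 472 higher (2.59%) and 167 lower (0.918%). After each array was centred on its own median the split was 324 higher and 255 lower, and after quantile normalisation 72 and 48. The share of higher genes thus fell from 73.9% to 56.0% and 60.0%, so the size of the excess depended on the scaling.

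**Figure D2:**
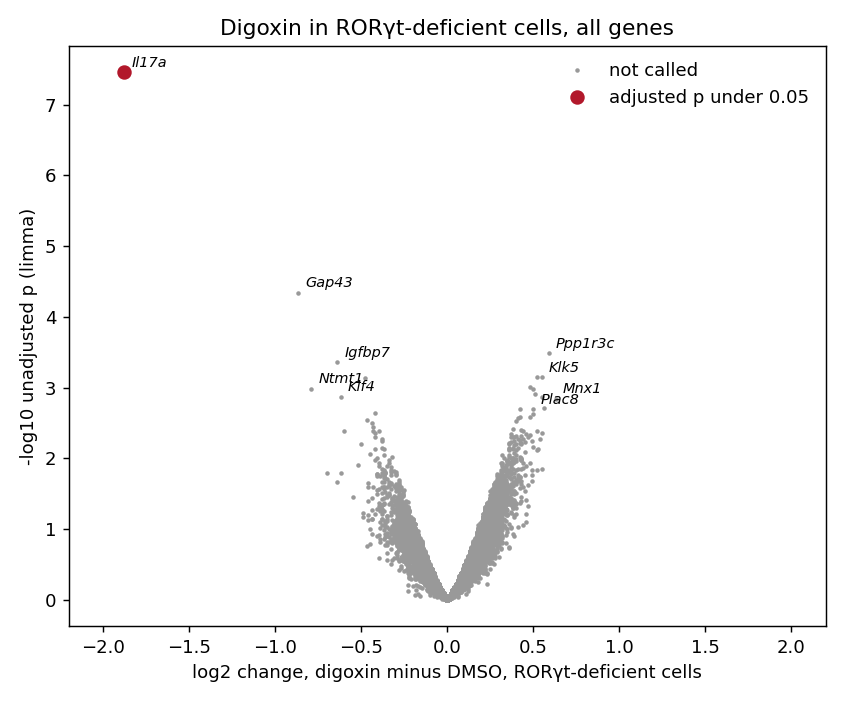
Log2 change by digoxin in RORγt-deficient cells (horizontal axis) against -log10 of the unadjusted limma p (vertical axis) for 18193 genes (points). Il17a at -1.88 is the called gene, and Gap43 at -0.87 is the next by p.

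With only Il17a called, the other genes named for their size were uncalled, and their values are descriptions. They were the remaining 23 genes with a change of at least 0.5 on the log2 scale whose digoxin and DMSO arrays did not overlap, leaving out clone and locus names. Groups that do not overlap were common among deficient cells, at 28.4% of all genes. The gene nearest to Il17a by p was Gap43, a growth-associated protein of neurons. It stood at -1.98 and -1.99 in digoxin-treated deficient cells, against -0.99 and -1.24 in deficient cells in DMSO. Digoxin-treated deficient cells were again the lowest of the 4 groups, but the change of -0.87 ± 0.13 did not pass (adjusted p = 0.417). Igfbp7, a secreted binding protein of the insulin-like growth factor family, stood at -1.60 and -1.86 with digoxin, against -1.09 and -1.09 in DMSO (-0.64 ± 0.12). Its 2 other probe sets showed no such difference, with changes from -0.03 to 0.01.

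Among the uncalled genes that stood higher was Ppp1r3c, a glycogen-targeting subunit of protein phosphatase 1. It had 0.33 and 0.52 in digoxin-treated deficient cells, against -0.18 and -0.15 in deficient cells in DMSO, a change of 0.59 ± 0.11 that was not called. In wildtype cells it stood at 0.47 and 0.51 with digoxin, against 0.05 and -0.05 in DMSO (0.49 ± 0.11, adjusted p = 0.248). The digoxin effect on Ppp1r3c differed between genotypes by 0.10, with a 95% interval of -0.25 to 0.44. Plac8, a gene for a small protein rich in cysteine, and Moxd1, a monooxygenase-like gene, were the 2 of the higher genes that were called in wildtype cells. Plac8 had 2.30 and 2.36 with digoxin, against 1.89 and 1.76 in DMSO (0.50 ± 0.12), and Moxd1 had 1.25 and 1.28 with digoxin, against 0.76 and 0.75 in DMSO (0.52 ± 0.14).

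The other 9 genes that stood higher were Klk5, a kallikrein-related peptidase (0.55 ± 0.11), Tlcd3b (0.55 ± 0.13), the motor neuron homeobox gene Mnx1 (0.63 ± 0.14), Hsd17b11, a hydroxysteroid dehydrogenase (0.56 ± 0.13), Gsg1l (0.55 ± 0.15), Inca1 (0.54 ± 0.15), the ephrin gene Efnb3 (0.53 ± 0.16), the glycerol 3-phosphate dehydrogenase gene Gpd1 (0.52 ± 0.15) and Resp18 (0.55 ± 0.19). Those that stood lower, besides Gap43 and Igfbp7, were Ntmt1, an N-terminal methyltransferase (-0.79 ± 0.17), Pacc1, a proton-activated chloride channel (-0.70 ± 0.24), the glutamate decarboxylase gene Gad1 (-0.64 ± 0.23), the zinc finger factor Klf4 (-0.62 ± 0.14), Nmd3, a nuclear export adaptor of the large ribosomal subunit (-0.62 ± 0.21), Mndal (-0.60 ± 0.16), Zfp935 (-0.55 ± 0.23), Zdhhc19, of the palmitoyltransferase family (-0.52 ± 0.17), and Uhrf2 (-0.50 ± 0.15). Of these 24 genes including Il17a, 13 had further probe sets, and in 12 of the 13 every further probe set changed by less than 0.3. The exception was Tlcd3b, whose others ranged from -0.00 to 0.35. The lowest array level was between 2 and 4 for 9 of the 24. At the size limit, Plac8 at 0.50 and Uhrf2 at -0.50 were just inside, and Bicc1 at 0.50 and Hnrnpa1 at -0.49 just outside.

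The digoxin effect without RORγt was next set against that with RORγt. The 22 genes called for digoxin in wildtype cells were chosen by their wildtype change against a spread estimated on all 8 arrays. The choice thus favours large wildtype changes and a small spread in deficient cells too, so the gap in size between genotypes and the counts of groups that did not overlap are descriptions. With the wildtype arrays fitted alone 9 genes were called, and without 1 or the other wildtype DMSO array 6 or 7. The 13 that rose in wildtype cells (0.0715% of all genes) had a median change of 0.24 in deficient cells and of 1.00 in wildtype cells. In deficient cells 12 of the 13 stood higher with digoxin, none was called, and 11 had groups that did not overlap (17.8% of all genes did so upward). The 9 that fell in wildtype cells (0.0495%) had a median change of -0.34 in deficient cells and of -1.46 in wildtype cells. That median in deficient cells was -0.52 without deficient DMSO array 2 and -0.15 after quantile normalisation, where the median of the 13 was 0.11. All 9 stood lower with digoxin in deficient cells, Il17a was the 1 called, and 7 had groups that did not overlap (10.6% of all genes did so downward). The change was smaller in deficient than in wildtype cells for each of the 22 genes. The difference had an unadjusted limma p under 0.05 for 13 of the 13 that rose and 8 of the 9 that fell (3.09% of all genes). That difference contains the wildtype change by which these genes were chosen, so low p-values were favoured in advance. These counts are therefore descriptions too.

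**Figure D3:**
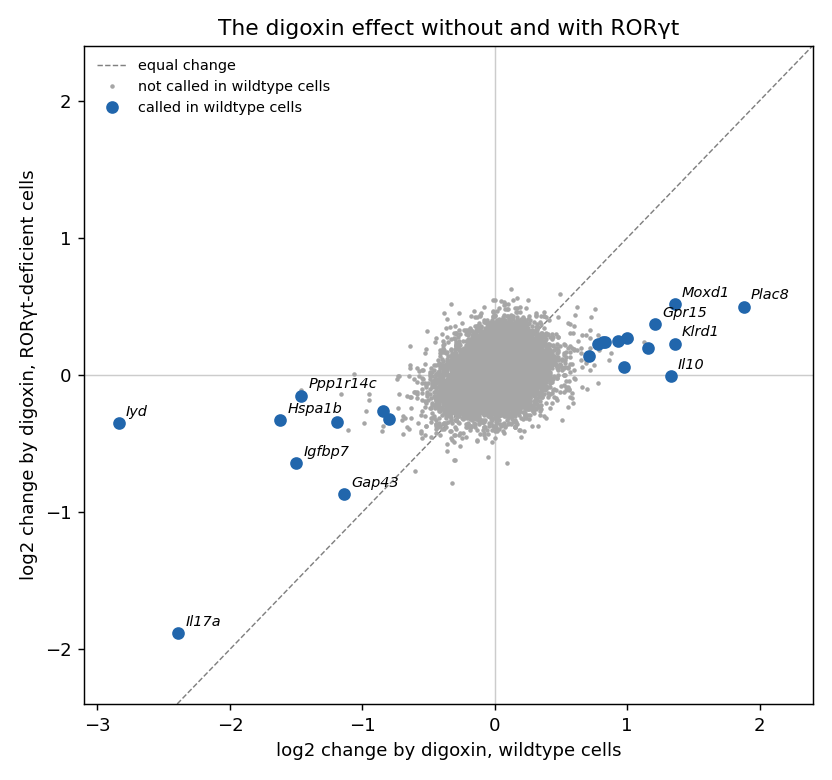
Log2 change by digoxin in RORγt-deficient cells (vertical axis) against that in wildtype cells (horizontal axis), with 1 point per gene, larger points for the 22 genes called in wildtype cells and a dashed line of equal change. Il17a lies at -1.88 against -2.39 and Gap43 at -0.87 against -1.14, while Iyd lies at -0.35 against -2.84.

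The difference between the digoxin effects, tested for every gene, was called for 0 genes by limma, with 562 (3.09%) at an unadjusted p under 0.05. The difference nearest to a call was that of Iyd, the iodotyrosine deiodinase gene. Iyd stood at -3.80 and -3.83 in digoxin-treated deficient cells, against -3.29 and -3.64 in deficient cells in DMSO, a change of -0.35 ± 0.19. In wildtype cells it stood at -2.59 and -3.09 with digoxin, against -0.17 and 0.17 in DMSO, a change of -2.84 ± 0.19. The effects differed by 2.49 ± 0.26 (95% interval 1.91 to 3.08, adjusted p = 0.0521), which just missed the threshold. The difference passed it with array weights, the mean over probe sets, quantile normalisation and a level-dependent variance. It stayed uncalled with median centring, every probe set, a level filter or the replicate number as a block. It also passed with the wildtype DMSO replicate numbers crossed, a setting chosen after seeing the data. The lowest array level of Iyd lay between 4 and 8.

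For Il17a the digoxin effects were -1.88 in deficient cells and -2.39 in wildtype cells. They differed by 0.51 ± 0.17 (95% interval 0.12 to 0.90, unadjusted p = 0.0151), which was not called. For Gap43 they were -0.87 and -1.14 in the same order, with a difference of 0.27 ± 0.18 and an interval of -0.13 to 0.67. Ppp1r14c, an inhibitor of protein phosphatase 1, was unlike both. It had -2.30 and -2.18 in digoxin-treated deficient cells, against -1.97 and -2.21 in deficient cells in DMSO, groups that overlapped. Its effects differed by 1.31 ± 0.20 (interval 0.87 to 1.75, adjusted p = 0.221).

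The immunoregulatory cytokine gene Il10 had 1.46 and 1.41 in digoxin-treated deficient cells, against 1.63 and 1.26 in deficient cells in DMSO. These groups overlapped, and the change was -0.01 ± 0.14, with an interval of -0.33 to 0.30. In wildtype cells Il10 had 1.46 and 1.20 with digoxin, against 0.03 and -0.03 in DMSO, so the deficient cells in either medium stood near the digoxin-treated wildtype cells. The effects on Il10 differed by -1.34 ± 0.20 (adjusted p = 0.221). Klrd1, which encodes the lectin-like receptor CD94, had 1.58 and 1.63 in digoxin-treated deficient cells, against 1.46 and 1.29 in DMSO (0.23 ± 0.11), and its effects differed by -1.13 ± 0.15 (adjusted p = 0.15). For Plac8 the effects differed by -1.37 ± 0.17 (adjusted p = 0.116), and for Serpinb5, which encodes maspin, by -0.92 ± 0.15 (adjusted p = 0.288).

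In deficient cells, the remaining genes called in wildtype cells were all uncalled. Among those that had risen in wildtype cells, the values were 0.37 ± 0.12 for Gpr15, a homing receptor of the large intestine, 0.27 ± 0.10 for Tafa3, 0.25 ± 0.13 for the Schlafen gene Slfn1, 0.24 ± 0.11 for the granzyme gene Gzmb, 0.24 ± 0.11 for Nkg7 of cytotoxic granules, 0.23 ± 0.10 for the costimulatory ligand gene Cd86, 0.20 ± 0.11 for the interferon-induced Ifitm1, 0.14 ± 0.10 for Ecm1 and 0.06 ± 0.10 for Serpinb5, whose other probe sets ranged from -0.15 to 0.21. Among those that had fallen in wildtype cells, the values were -0.34 ± 0.14 for the stress-induced regulator Nupr1, -0.33 ± 0.24 for the heat shock gene Hspa1b, -0.32 ± 0.10 for Ramp1, a receptor subunit for calcitonin gene-related peptide, and -0.26 ± 0.12 for Csf2, which encodes GM-CSF. Other probe sets ranged from -0.05 to 0.00 for Ramp1 and from -0.22 to -0.18 for Hspa1b. The other probe set stood at -0.19 for Nupr1, 0.08 for Cd86 and 0.23 for Slfn1. The near-identical Hspa1a shares sequence with Hspa1b, so a value of Hspa1b is not certain to be its own.

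**Figure D4:**
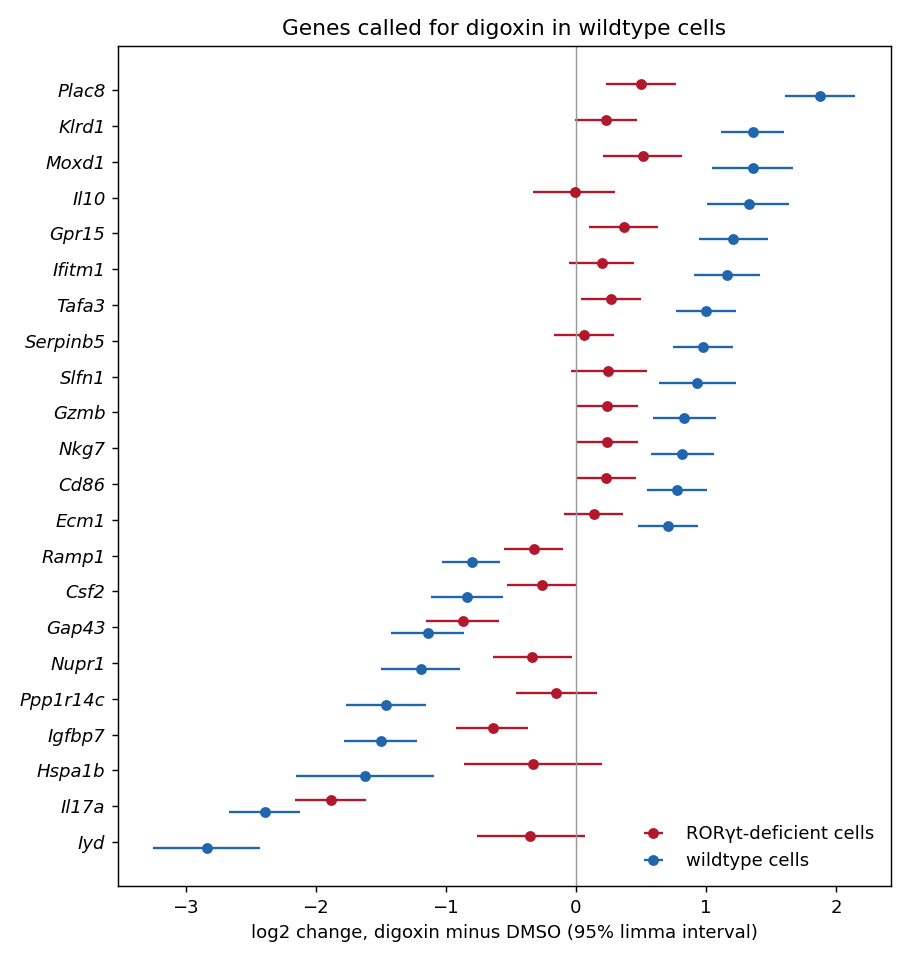
Log2 change by digoxin (horizontal axis, points, with 95% limma intervals) of the 22 genes called in wildtype cells, in RORγt-deficient cells and in wildtype cells. The points of deficient cells lie between -0.87 and 0.52 except for Il17a, and each lies nearer to 0 than the wildtype point of its gene.

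Across all 18193 genes, the changes by digoxin in deficient and in wildtype cells correlated with Pearson's r of 0.28, and with r of 0.46 over the 3749 genes whose lowest level was 8 or above. The 2 changes share no array, but all 8 arrays were normalised together, and genes are not independent replicates, so these are descriptions.

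T helper genes other than Il17a were not called in deficient cells. Of 12 measured genes of the T helper set, 1 was called lower and 0 higher, and their median was -0.12. Ccr6, the chemokine receptor of Th17 cells, had -0.96 and -1.27 with digoxin, against -0.57 and -0.85 in DMSO (-0.41 ± 0.16, not called). Its ligand gene Ccl20 stood at -0.23 ± 0.14, the growth factor gene Il2 at -0.16 ± 0.11, and the interleukin 1 receptor gene Il1r1 at 0.08 ± 0.11. The lineage regulators Tbx21 of Th1 cells (0.17 ± 0.10), Gata3 of Th2 cells (-0.22 ± 0.14) and Foxp3 of regulatory cells (-0.08 ± 0.15) were not called. The cytokine genes Ifng (0.06 ± 0.19) and Il4 (-0.15 ± 0.12) were not called either.

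Rora encodes RORα, the nuclear receptor related to RORγt that also takes part in Th17 differentiation. It had 0.22 and -0.05 in digoxin-treated deficient cells, against 0.28 and 0.07 in deficient cells in DMSO, groups that overlapped. The change was -0.09 ± 0.14, and the other Rora probe sets ranged from -0.15 to 0.18. Among 20 measured nuclear receptor genes 0 were called, with a median of -0.01. The vitamin D receptor gene Vdr had the lowest value of these, -0.34 ± 0.13, with -0.76 and -0.90 with digoxin, against -0.45 and -0.52 in DMSO.

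Th17 effectors had a median of -0.12 over 13 measured members, with Il17a called and 0 called higher. Furin, a proprotein convertase gene, had -1.41 and -1.37 with digoxin, against -0.73 and -1.27 in DMSO (-0.40 ± 0.17), and Il24 stood at -0.33 ± 0.11. Neither was called. The 15 Th17 transcription factors had a median of 0.01, and 0 were called. The 10 Th1 genes had a median of 0.08 and 0 called, with Hlx, a homeobox factor that promotes the Th1 programme, at 0.67 and 0.72 with digoxin, against 0.04 and 0.36 in DMSO (0.50 ± 0.15). Th2 genes (median -0.01, 11 members), regulatory T cell genes (0.05, 14 members) and follicular helper genes (-0.03, 10 members) had 0 called. Cxcr5, the homing receptor of follicular helper cells, stood at 0.36 ± 0.12 and the ectonucleotidase gene Entpd1 at 0.29 ± 0.13.

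None of the measured genes of the sodium pump, the classical target of digoxin, was called in deficient cells. The median was -0.02 over 12 measured subunit and regulator genes, and Atp1b3, a beta subunit gene, had 0.06 and -0.10 with digoxin, against -0.02 and 0.01 in DMSO (-0.02 ± 0.11). Atp1b1 stood at 0.18 ± 0.14 (other probe sets from -0.18 to 0.17), Atp1b2 at 0.05 ± 0.11 (-0.16 at the other), Atp1b4 at -0.06 ± 0.10 and the alpha subunit gene Atp1a4 at 0.10 ± 0.12, and the other alpha subunit genes were not analysed here. The lowest array level lay between 2 and 4 for 5 of the 12 genes, Atp1a4 among them. Other genes of sodium, potassium and calcium transport had a median of 0.03 over 15 members and 0 called, with the proton pump gene Atp12a highest at 0.31 ± 0.13. Targets of the osmotic stress factor NFAT5 had a median of -0.10 over 8 members and 0 called, with Hspa4l at -0.30 ± 0.13. Immediate early genes, which respond to calcium and growth signals, had a median of 0.00 over 17 members and 0 called, with Egr3 at 0.26 ± 0.10 and its other probe set at -0.21. Targets of calcium, NFAT and NF-kB had a median of -0.04 over 12 members and 0 called.

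No stress list had a called member in deficient cells. A change as large as that of Gap43 (-0.87 ± 0.13) went uncalled with 2 arrays per group. For these and the other lists, 0 called therefore does not show that the genes were unchanged. Medians were -0.00 for 18 ATF4 amino acid stress genes, 0.01 for 16 ER chaperone and unfolded protein genes, -0.01 for 11 cytosolic heat shock genes, -0.05 for 15 targets of p53, -0.00 for 10 antioxidant targets of NRF2 and 0.04 for 13 apoptosis regulators. For growth, medians were 0.01 for 19 G2/M genes, 0.06 for 18 DNA replication genes, 0.00 for 16 Myc and ribosome biogenesis genes and -0.01 for 18 glycolysis and HIF-1 targets, with 0 called in each. The replication helicase gene Mcm5 stood at 0.33 ± 0.18 (other probe sets from 0.12 to 0.19). Mcm3 was lowest of the DNA replication genes at -0.31 ± 0.26 (other probe sets from -0.11 to 0.17). The spindle checkpoint kinase gene Ttk stood at -0.27 ± 0.13, and its other probe set at 0.11. Sterol and fatty acid synthesis genes (median -0.01, 16 members) and liver X receptor targets (0.00, 8 members) had 0 called, and Insig1, a brake on sterol synthesis, stood at -0.40 ± 0.33.

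Circadian clock genes, several of which carry ROR elements, had 0 called among 16 members in deficient cells and a median of 0.05. Nr1d2, which encodes the repressor REV-ERBβ, had -0.89 and -1.10 with digoxin, against -0.69 and -0.71 in DMSO (-0.30 ± 0.11). Arntl, which encodes the activator BMAL1, had 0.09 and 0.20 with digoxin, against -0.27 and -0.11 in DMSO (0.33 ± 0.11), and its effect differed from that in wildtype cells by an unadjusted p of 0.00639 without a call. A further probe set stood at 0.07 for Nr1d2 and at -0.02 for Arntl. Natural killer receptor and granule genes had the highest median of the 34 pathway and state lists, 0.14 over 16 members, with 0 called and 8 whose groups did not overlap, all higher (17.8% of all genes did so upward). The granule protease gene Ctsw stood highest among them, with 0.75 and 0.82 with digoxin, against 0.31 and 0.54 in DMSO (0.36 ± 0.11). Other lists also had many members whose groups did not overlap. Of 10 Th1 genes 5 did so upward and 1 downward, and of 18 DNA replication genes 7 upward and 0 downward. In the T helper set 1 of 12 did so upward and 6 downward. Among 13 Th17 effectors, a list that shares members with that set, 1 did so upward and 6 downward (10.6% of all genes did so downward).

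The other lists had 0 called members in deficient cells. Their medians were 0.04 for 18 interferon-stimulated genes, -0.04 for 16 TGF-beta pathway genes, 0.02 for 15 IL-6, STAT and SOCS genes, -0.02 for 14 S100 and Schlafen genes, 0.06 for 21 chemokine and homing receptor genes, 0.03 for 10 naive T cell genes and -0.13 for 11 activation genes. Over the 439 distinct measured members of the 34 lists, 19 had an unadjusted p under 0.05 (4.33%, against 3.51% of all genes), and 30.8% had groups that did not overlap (28.4% of all genes).

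**Figure D5:**
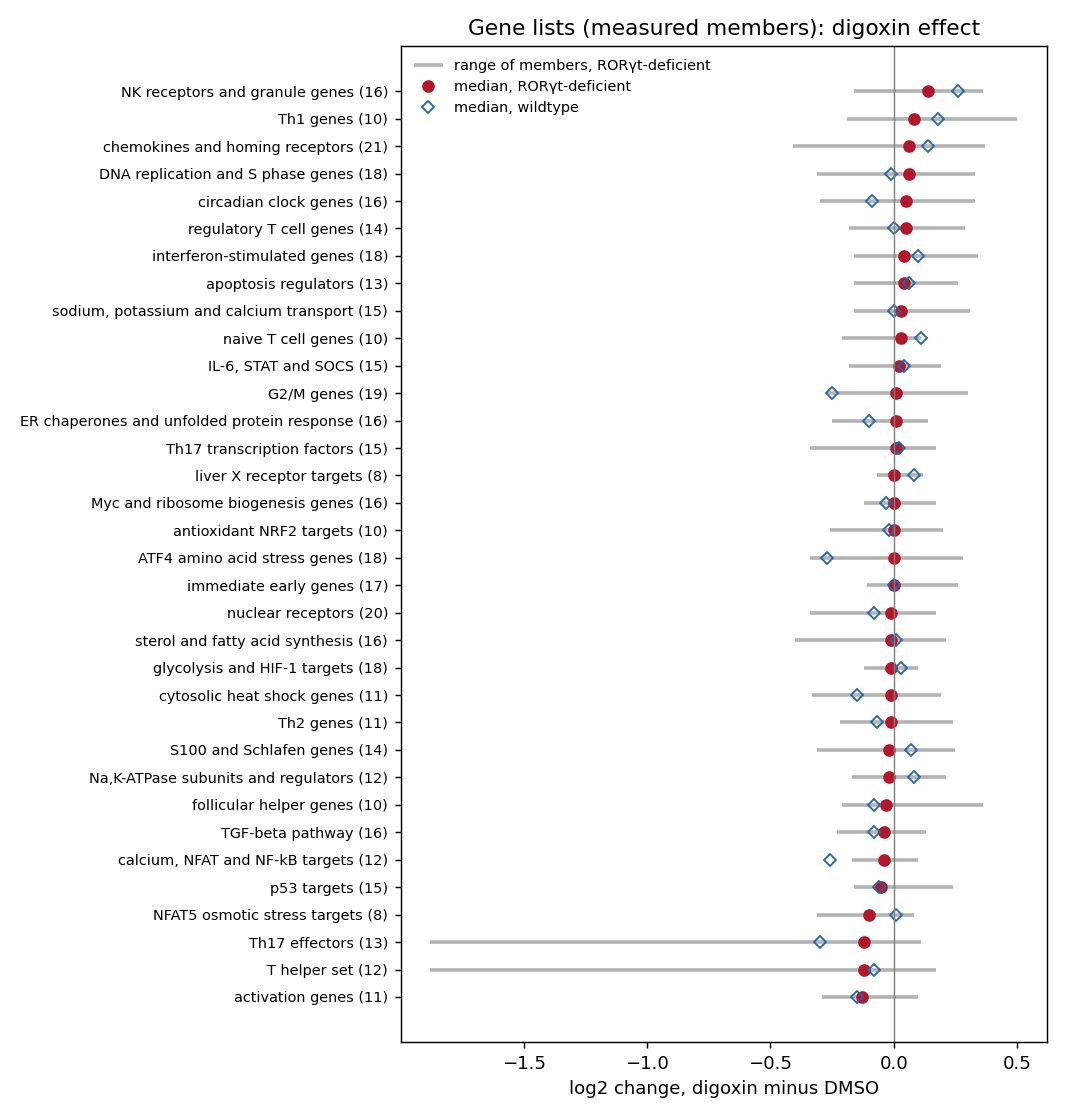
Median log2 change by digoxin of each gene list in RORγt-deficient cells (filled circles, with the range of its members as bars) and in wildtype cells (open diamonds), with the number of measured members in brackets. Medians in deficient cells lie between -0.13 and 0.14, and the long bars to the left end at Il17a.

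Across the series, array medians lay between -0.01 and 0.03, and the SD of the differences between the 2 arrays of a group was 0.21 in deficient digoxin, 0.22 in deficient DMSO, 0.24 in wildtype digoxin and 0.18 in wildtype DMSO. On the leading principal component, with 40.0% of the variance, arrays numbered 2 and 1 of the deficient cells scored 18.3 and 5.15 in digoxin and 14.8 and -3.43 in DMSO, so arrays of 1 group stood farther apart than the groups did. The 5 measured CD4 T cell markers Cd4, Cd3e, Cd3d, Cd3g and Cd28 all had a lowest level of 8 or above. None of the markers of CD8 T, natural killer, B, myeloid, gamma delta T, erythroid or basophil and mast cells had a lowest level of 8 or above, and none was called. The mean of 5 myeloid markers was 0.05 and 0.31 in digoxin-treated deficient cells, against -0.05 and 0.03 in deficient cells in DMSO, with 1 at an unadjusted p under 0.05, Csf1r (0.43 ± 0.13, with -0.02 to 0.14 at its 2 other probe sets). The mean of 4 B cell markers was 0.27 and 0.23 with digoxin, against -0.00 and 0.14 in DMSO. Their part in the values above was not tested. In such bulk samples, fewer cells of a type and less RNA per cell cannot be told apart, for Il17a too.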

How the data were processed

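Total RNA of each sample was hybridised to 1 Affymetrix Mouse Genome 430 2.0 array. Per the submitters' processing notes the authors summarised intensities with RMA, and the design text names GeneSpring GX 11.5. That the deposited values are on the log2 scale was taken from the use of RMA and from the binary step of the values. For every probe set, the 2 deposited wildtype DMSO values summed to 0 within 1e-06, so each value is a difference from their mean and no absolute level is left; no label records this. No genome build is given in the sources used here.

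Control probe sets (64) were left out. Of 34945 probe sets with 1 symbol, 34741 matched the GRCm38.p6 RefSeq table; 932 had several symbols and 9211 none. For 9010 genes with several probe sets, 1 was taken by suffix (_at, _a_at, _s_at, _x_at), then identifier. Level ranges came from the binary step of the values. Limma 3.58.1 in R 4.3.3 fitted 4 group means to 8 arrays (4 residual and 5.8 prior degrees of freedom), two-sided, with Benjamini-Hochberg adjustment over all 18193 genes; an adjusted p under 0.05 made a call, and ± gives the standard error (n = 2 arrays each) except where SD is written. Having few arrays limits the precision. The fit was tested on simulated data. Alternatives were array weights, the compared groups alone, every probe set, a probe set mean, a level filter, median centring, quantile normalisation, a variance trend, replicate blocks and leaving out each array.

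Members and lists were chosen with earlier results of these data known. Genes were named by a rule: up to 12 per direction by call or, uncalled, by p among changes of at least 0.5 with groups apart; up to 4 members per list; a T helper set; sodium pump subunits; and genes called in wildtype cells.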

Additional observations from a re-analysis of the deposited data

How the results depend on the processing

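Under 18 alternative settings, the count for digoxin in RORγt-deficient cells stayed at 1, with Il17a the gene called, except after quantile normalisation of the deposited values, where it was 0 (120 genes at an unadjusted p under 0.05). There Il17a stood at -0.79 ± 0.17. It ranked lowest on both digoxin-treated deficient arrays, and 2 and 3 from the bottom on deficient DMSO arrays 1 and 2. This setting gives equal ranks equal values on every array. Without each array in turn, the Il17a change ranged from -2.01 to -1.76 (adjusted p from 0.00144 to 0.0259) and the count was 1 each time. None of the other 189 named genes was called under the 17 settings run for single genes. The count for the difference of the digoxin effects was 0, and it was 1, Iyd, with array weights, with the mean over probe sets, after quantile normalisation, with a level-dependent variance and without wildtype digoxin array 1, so it ranged from 0 to 1 without single arrays. The count of 22 for digoxin in wildtype cells, 13 higher and 9 lower, was 35 with array weights (19 higher), 9 with only the compared groups (5 higher), 40 with the mean over probe sets (27 higher), 4 after quantile normalisation (0 higher), 52 with a level-dependent variance (29 higher) and from 6 to 23 without single arrays: 6 and 7 without wildtype DMSO array 1 or 2, 12 without wildtype digoxin array 2 and 14 without either deficient digoxin array. The list of 22 genes therefore rests on these choices, and the cause was not tested. The median change in deficient cells of the genes that rose in wildtype cells was 0.11 after quantile normalisation and from 0.20 to 0.29 without single arrays. For those that fell it was -0.15 after quantile normalisation and from -0.52 to -0.33 without single arrays, -0.52 without deficient DMSO array 2. The replicate numbers were checked for pairing: the deviations of same-numbered arrays correlated at 0.34 between the deficient groups, at 0.32 and 0.45 between wildtype digoxin and deficient digoxin or DMSO, and at -0.14, -0.19 and -0.24 between wildtype DMSO and deficient digoxin, deficient DMSO and wildtype digoxin. So 3 groups deviated together by number and wildtype DMSO did not, and no label says what a number marks. With the replicate number as a block the counts were 1, 0 and 25 for digoxin in deficient cells, the difference and digoxin in wildtype cells. With the wildtype DMSO numbers crossed, a setting chosen after seeing the data, they were 1, 2 and 60. A level below 4 was left out in a further setting, with 1, 0 and 25 called.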
